A study of Mus musculus with 12 samples.

Results

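Bile acid synthesis and its control were followed in the liver through 10 genes, each measured by every probe set that the array annotation assigns to its symbol alone. These were 6 genes of synthesis or conjugation on the route from cholesterol, Cyp7a1, Cyp8b1, Cyp27a1, Cyp7b1, Akr1d1 and Slc27a5, the conjugating enzyme Baat, and the regulators Nr0b2, Nr1h4 and Fgfr4. They made up 10 of 18193 named genes and 20 of 45037 probe sets, of which 17 passed the filter on low signals. Each gene is described by its brightest probe set, and all 10 of these passed the filter.

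Livers of 30-week-old C57BL/6J mice had been hybridised to 12 Affymetrix mouse genome arrays, 3 in each of 4 groups. LDC males and LDC females had been exposed to low-dose cadmium, 100 nM CdCl2 in the drinking water, which began with their dams before mating and went on after weaning. Control males and control females drank water alone, and all groups received the same standard diet. The labels call the arrays biological replicates, but neither these nor the methods state which mice shared a litter or cage, or the hour of tissue collection, so p-values measure the spread between these samples. An array is named by its group and labelled replicate number, as in control female 2.

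As background, the liver disposes of cholesterol by turning it into bile acids. In the classic route Cyp7a1 takes the first and rate-limiting step, and Cyp8b1 directs the product towards cholic acid. In the alternative route Cyp27a1 oxidises the side chain of cholesterol and Cyp7b1 adds the next hydroxyl group. Bile acids shut down their own synthesis. They activate the receptor FXR, the product of Nr1h4, which induces the repressor SHP, the product of Nr0b2, and the intestinal hormone Fgf15 reaches the same enzymes through the hepatocyte receptor Fgfr4.

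The arrays matched their labels for sex, with Xist high in the 6 female livers and the Y-linked genes Eif2s3y, Kdm5d and Uty high in the 6 male livers. Within a group, pairs of arrays correlated at 0.914 to 0.941 over the probe sets tested. Control female 2 correlated slightly more with the LDC females than with its own group. Its mean correlation was 0.937 with the 3 LDC females and 0.926 with the other control females. The lower value still lies within the range of pairs within a group, and the same comparison was not made for the other arrays. Nr0b2 and Nr1d1, whose calls in females changed without control female 2, are also given that way. Leaving out a control array that resembles the LDC females tends to widen the LDC contrast, so calls made without it are no separate support. Without control female 2, 51 probe sets were called higher and 55 lower in LDC females, where the fit with it called 7 and 26. Of 10 hepatocyte markers, 8 had a probe set and summed to signals of 384294 to 390402 in LDC males, 381695 to 428244 in control males, 345826 to 380320 in LDC females and 346094 to 396786 in control females. None of the 8 passed the test for LDC in either sex. Of 9 bile duct markers, 6 had a probe set. These summed to 203 to 373 in LDC males and 363 to 534 in control males. In LDC females their sums were 267 to 748, and in control females 367 to 554. In whole liver, fewer cells of a type and less RNA per cell cannot be told apart.

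In LDC livers none of the 10 genes passed the test against control, in males or in females. The largest fitted change belonged to Nr0b2, at 2.40 times the control level in males and 2.22 times in females. In males, Cyp7a1 was 1.93 times as high and Cyp7b1 0.577 times as high as in control livers, with no overlap between the arrays of the groups. Some of the genes differed between the sexes by the test. Cyp7b1 was higher and Fgfr4 lower in male than in female livers, in LDC and in control mice, and Cyp7a1 was lower in control males than in control females.

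**Figure D1:**
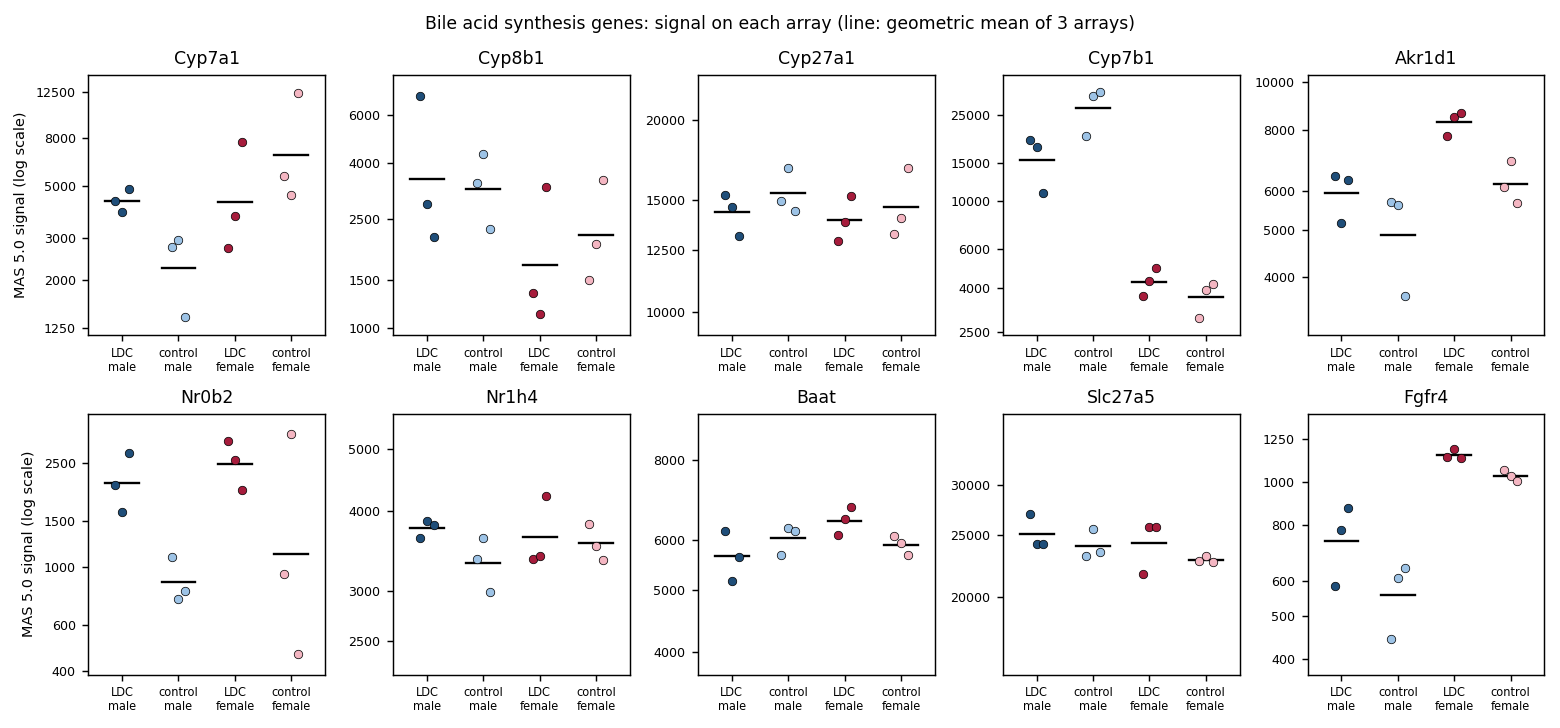
Signal of each gene (MAS 5.0 intensity, log scale) on the 3 arrays of each group, LDC left of control within each sex, with the geometric mean as a line. Nr0b2 lay higher on all 3 LDC male arrays (1616 to 2730) than on the control male arrays (756 to 1089), Cyp7b1 was far higher in males than in females, and Cyp27a1, Nr1h4, Baat and Slc27a5 varied little.

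Cyp7a1, the enzyme of the rate-limiting step, had signals of 4339, 3872 and 4867 in LDC males, against 2755, 2939 and 1396 in control males. In LDC females the signals were 2732, 3719 and 7718, against 5497, 4564 and 12398 in control females. All LDC males lay above all control males, whereas the female groups overlapped and each held 1 array, replicate 3, well above the others. The LDC effect, a log2 fold change, was 0.95 in males (SE 0.39, adjusted p = 0.418 in limma). In females it was -0.66 (SE 0.39, adjusted p = 0.654). The difference between these effects was 1.61 (SE 0.55, 95% interval 0.44 to 2.79) and did not pass the test either, at an adjusted p of 0.34. A second probe set gave 0.96 in males and -0.33 in females.

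Between the sexes, the Cyp7a1 contrast was 0.02 in LDC livers (95% interval -0.81 to 0.85), and the signals of LDC males all lay within the range of those of LDC females. In control livers Cyp7a1 was lower in males, with a log2 fold change of -1.59 (SE 0.39, adjusted p = 0.0217), and the arrays did not overlap. The control contrast missed the threshold without an intensity trend in the fit and when control female 3 or control male 3 was left out, and its values in the fits without 1 array were -1.88 to -1.16. The second probe set passed the test as well, with -1.23 (adjusted p = 0.0447).

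Cyp8b1, the sterol 12-alpha-hydroxylase that sets the share of cholic acid, was among the most variable of the 10 genes within groups. Its signals were 7018, 2830 and 2144 in LDC males, against 3391, 4332 and 2293 in control males. LDC females had 1339, 1131 and 3272, against 1502, 2023 and 3474 in control females. The groups overlapped in both sexes, and the LDC effect was 0.11 (SE 0.45) in males and -0.36 (SE 0.45) in females. The male value took the opposite sign, at -0.39, without LDC male 1. Male livers had higher fitted levels than female livers, by 1.03 (SE 0.45, adjusted p = 0.221) in LDC mice and 0.56 (adjusted p = 0.521) in control mice, and neither contrast passed the test.

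Cyp27a1, the mitochondrial sterol 27-hydroxylase, was steady. It ranged over 13182 to 15291 in LDC males and 14428 to 16800 in control males, and over 12915 to 15221 in LDC females and 13250 to 16799 in control females. Its LDC effect was -0.10 (95% interval -0.32 to 0.12) in males and -0.07 (-0.29 to 0.16) in females. A further probe set for this gene lay below the filter, with group means of 21.9 to 40.6.

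Cyp7b1, the oxysterol 7-alpha-hydroxylase of the alternative route, differed most between the sexes. LDC males had signals of 19175, 17748 and 10901, against 3674, 4273 and 4950 in LDC females. Control males had 19944, 30376 and 31893, against 2898, 3907 and 4158 in control females. Every male array lay above every female array. The log2 fold change of male over female livers was 1.86 (SE 0.22, adjusted p = 0.000103, 3.63 times) in LDC mice and 2.89 (adjusted p = 1.91e-06, 7.43 times) in control mice. Leaving out any of the 12 arrays ended neither call.

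Within males, all 3 LDC arrays lay below all 3 control arrays for Cyp7b1. The LDC effect was -0.79 in males (SE 0.22, unadjusted p = 0.00251 and adjusted p = 0.184 in limma). It was 0.24 in females (SE 0.22, adjusted p = 0.799). Their difference was -1.03 (95% interval -1.69 to -0.38, adjusted p = 0.266). The second probe set, at -0.92 in males and 0.26 in females, gave values close to these, and another lay below the filter with group means of 18.3 to 52.0. None of these contrasts passed the test, and the male effect ranged between -1.01 and -0.54 when 1 array was left out.

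Akr1d1, the reductase that saturates the sterol ring in both routes, was higher on every LDC female array (7761, 8491 and 8633) than on the control female arrays (6102, 6905 and 5681). In males the groups overlapped, with 6426, 5150 and 6305 in LDC males, against 5698, 5609 and 3657 in control males. The LDC effect was 0.42 (SE 0.15, unadjusted p = 0.0152 and adjusted p = 0.417 in limma) in females and 0.28 (SE 0.15, adjusted p = 0.564) in males. A second probe set gave 0.41 in females and 0.41 in males, with overlapping arrays in both. Between the sexes the contrast was -0.48 in LDC mice (adjusted p = 0.0774) and -0.34 in control mice (adjusted p = 0.2). The contrast in LDC mice passed the test without control male 3, with quantile normalization and with the 6 LDC arrays alone.

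Conjugation runs through Slc27a5, the bile acid CoA ligase, and Baat, which joins the activated acid to taurine or glycine. Slc27a5 had signals of 24263 to 27004 in LDC males and 23244 to 25580 in control males, and of 21732 to 25786 in LDC females and 22728 to 23190 in control females. Its LDC effect was 0.06 (95% interval -0.12 to 0.24) in males and 0.09 (-0.09 to 0.27) in females. Baat ranged over 5172 to 6199 in LDC males and 5680 to 6265 in control males, while the 3 LDC females, at 6100 to 6746, lay just above the control females at 5673 to 6084. Its effects were -0.10 (-0.29 to 0.10) in males and 0.13 (-0.07 to 0.32) in females, and neither gene passed the test.

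**Figure D2:**
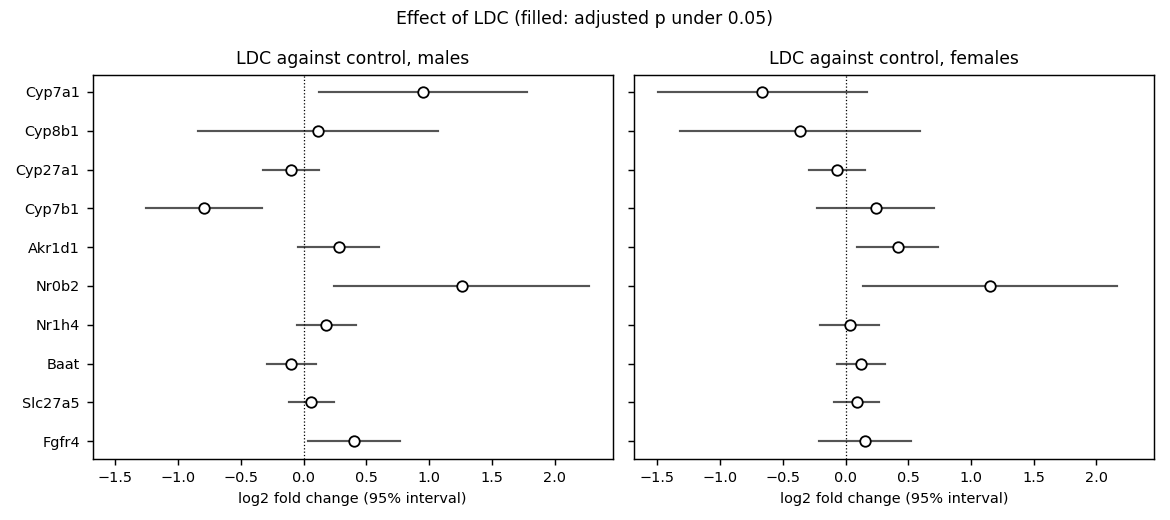
Log2 fold change of each gene in LDC against control livers of males (left) and females (right), with 95% intervals from the limma fit. No point is filled, since no gene had an adjusted p under 0.05. Nr0b2 lay at 1.26 in males and 1.15 in females with wide intervals.

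Among the regulators, Nr1h4, which encodes the bile acid receptor FXR, varied little. Its signals were 3631, 3854 and 3798 in LDC males, against 3362, 3628 and 2981 in control males, and 3364, 3404 and 4219 in LDC females, against 3815, 3530 and 3356 in control females. The male groups did not overlap, by a margin of a few signal units, and the LDC effect was 0.18 (95% interval -0.05 to 0.42) in males and 0.03 (-0.20 to 0.27) in females.

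Nr0b2 encodes SHP, a nuclear receptor without a DNA-binding domain that represses Cyp7a1 and Cyp8b1. It lies on chr4:133553376-133556686, and the 150 bases before its start are shown because Nr0b2 had the largest fitted LDC changes. They are set beside those of Cyp8b1, a gene that SHP represses, and were taken from RefSeq on GRCm38.p6. The search used TCAAGG, a form of the core of the site for the receptor LRH-1 (Nr5a2), and the half-site AGGTCA, on both strands of the 250 bases before each start. Capitals mark TCAAGG.
Nr0b2 (chr4:133553226-133553375, plus strand): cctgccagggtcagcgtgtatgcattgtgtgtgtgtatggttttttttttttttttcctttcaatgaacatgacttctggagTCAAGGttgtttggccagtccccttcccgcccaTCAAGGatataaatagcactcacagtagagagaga
Cyp8b1 (chr9:121916306-121916455, minus strand): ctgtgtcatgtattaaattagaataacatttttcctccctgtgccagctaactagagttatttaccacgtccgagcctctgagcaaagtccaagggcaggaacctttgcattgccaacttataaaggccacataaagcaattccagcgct

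In Nr0b2 the letters TCAAGG began 68 and 35 bases before the start, and the Cyp8b1 window held none, as did those of Cyp27a1, Nr1h4 and Fgfr4. Akr1d1 had 1 match on the opposite strand. Over all 32851 promoter windows, 12.5% held TCAAGG and 14.0% held AGGTCA, which Akr1d1 and Nr1h4 also held. A match is a string of letters and no evidence of binding. Only exact letters were searched. The ccaagg in the printed Cyp8b1 bases, which differs from TCAAGG in its first letter, was therefore not counted. A window without a match is thus not shown to lack a site. No window was given for the other 4 genes.

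Nr0b2 had signals of 2064, 1616 and 2730 in LDC males, against 1089, 756 and 805 in control males, without overlap. LDC females had 3040, 2557 and 1971, against 939, 3213 and 464 in control females. Control female 2 was the highest of all 12 arrays, while the other control females lay below every LDC array. For males the LDC effect was 1.26 (SE 0.47, unadjusted p = 0.0184 and adjusted p = 0.376 in limma), and for females 1.15 (SE 0.47, unadjusted p = 0.0289 and adjusted p = 0.492). Without control female 2, the female effect was 1.91 and passed the test, at an adjusted p of 0.011. That array was singled out for its likeness to the LDC females, so this pass is no separate support for an LDC effect. The male effect passed the test only when the 6 male arrays were fitted alone. The difference between the sexes, 0.11, had a 95% interval of -1.32 to 1.54.

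Fgfr4, the receptor for Fgf15, was lower in male than in female livers. LDC males had 585, 782 and 875, against 1139, 1188 and 1133 in LDC females, and control males had 444, 611 and 642, against 1064, 1034 and 1009 in control females. The arrays of the sexes did not overlap, and the contrast was -0.65 (SE 0.17, adjusted p = 0.0367) in LDC mice and -0.89 (adjusted p = 0.00545) in control mice. The LDC contrast missed the threshold without LDC male 1, LDC male 2 or any one of the LDC females, with values of -0.77 to -0.48 over the 12 fits. The LDC effect was 0.40 (SE 0.17, unadjusted p = 0.034 and adjusted p = 0.439 in limma) in males and 0.16 (adjusted p = 0.842) in females. Another 3 tested probe sets of this gene were dim, with group means of 162 to 268, and none of them passed a test. The next brightest ran the other way between LDC males and LDC females, at 0.27. A further probe set lay below the filter, with group means of 8.60 to 32.9.

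**Figure D3:**
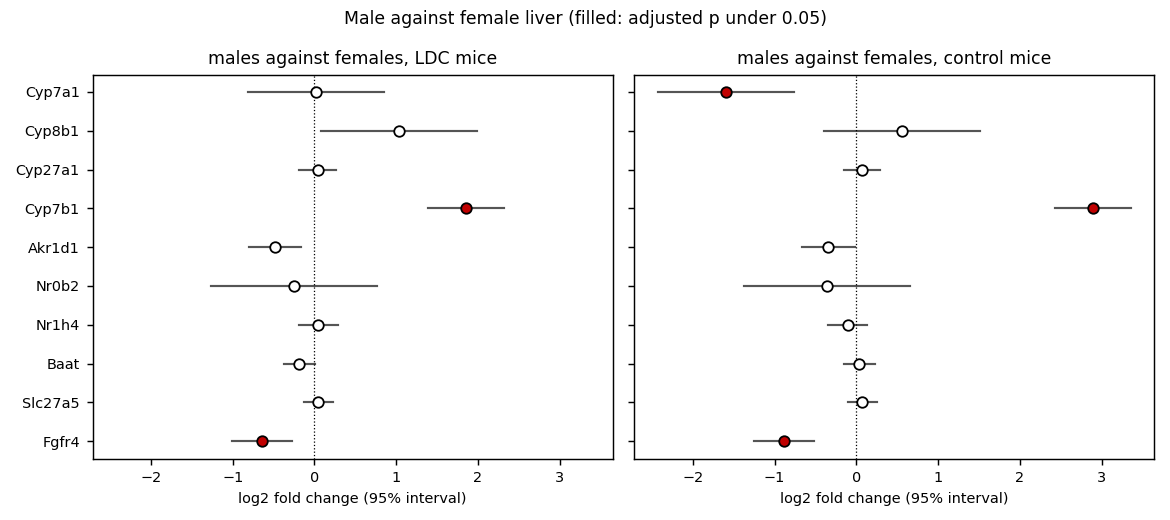
Log2 fold change of each gene in male against female livers, in LDC mice (left) and control mice (right), with 95% intervals. Filled points had an adjusted p under 0.05: Cyp7b1 and Fgfr4 in both panels, at 1.86 and -0.65 in LDC mice and 2.89 and -0.89 in control mice, and Cyp7a1 in control mice, at -1.59.

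Counted together, 0 of 10 genes were called at an adjusted p under 0.05 in limma for LDC in males, where 0.278% of the 27022 probe sets were, and 0 of 10 in females, where 0.122% were. These backgrounds moved with single arrays: without LDC male 1 the male calls were 9 higher and 9 lower, and without LDC male 3 they were 9 and 8, where all arrays gave 43 and 32. The methods' t-test called 0 of the 27022 probe sets in either sex. At an unadjusted p under 0.05, 4 of 10 differed in males against a background of 10.2%, with Cyp7a1, Nr0b2 and Fgfr4 higher and Cyp7b1 lower, and 2 of 10 in females (Akr1d1 and Nr0b2) against 9.01%. Only Nr0b2 also differed at least 2-fold, 1 of 10 in each sex, beside 3.0% of all probe sets in males and 2.18% in females. The study also required a 2-fold difference and p under 0.05. Here both came from the limma fit on log2 signals, so these are not counts by the study's own comparison. Mean signals of Nr0b2 in females, before log2, were 2522.5 with LDC and 1538.6 in control livers, less than 2-fold apart. The LDC and control arrays did not overlap for 4 genes in males (Cyp7a1, Cyp7b1, Nr0b2 and Nr1h4), against 16.5% of all probe sets, and for 3 in females (Akr1d1, Baat and Fgfr4), against 13.9%. The median LDC effect over the 10 genes was 0.15 in males and 0.11 in females, where over all probe sets tested it was 0.00 and 0.01.

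For the difference between the LDC effects of males and females, 0 of 10 genes were called, beside 0.178% of all probe sets. At an unadjusted p under 0.05 the effects of 2 genes differed (Cyp7a1 and Cyp7b1, in opposite directions), beside 10.3%. Between the sexes, 2 of 10 were called in LDC mice, 1 in each direction, where 6.29% of all probe sets were called, and 3 of 10 in control mice, 1 higher and 2 lower in males, where 7.73% were. An effect called in one contrast and missed in the other is not by itself shown to differ between them. Cyp7a1 was called only in control mice, and its difference was not called. Cyp7b1 and Fgfr4 were called in both LDC and control mice, and their differences were not called either.

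The genes varied unequally within groups. Nr0b2, Cyp8b1 and Cyp7a1 had within-group SDs of 0.76, 0.72 and 0.63 on the log2 scale, and Cyp7b1 had 0.34. Fgfr4 and Akr1d1 lay between 0.21 and 0.22. Nr1h4 and Cyp27a1 had 0.13, and Baat and Slc27a5 had 0.09, in the lowest 3.2% of all probe sets tested.

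Whether Nr0b2 moved against its target genes from liver to liver was examined in the deviations of the 12 arrays from their group means, over 4 pairs of genes. Nr0b2 and Cyp7a1 had r = -0.568 (exact within-group permutation p = 0.185, adjusted over the 4 pairs 0.37) and rho = -0.399 (exact permutation p = 0.275). The correlation was 0.375 in males and -0.757 in females, and -0.196 without the 2 arrays farthest from the median of Nr0b2. It rested on control female 3, since r was -0.239 without that array and -0.561 without control male 2, a check added after the values were seen. Cyp7a1 and Cyp8b1 had r = 0.671 (exact permutation p = 0.0301, adjusted 0.12) and rho = 0.566 (exact permutation p = 0.0563), which was 0.368 in males, 0.877 in females and 0.52 without the 2 farthest arrays. Nr0b2 with Cyp8b1 gave r = -0.344 (exact permutation p = 0.326) and rho = -0.357, and Nr1h4 with Nr0b2 gave r = -0.069 (exact permutation p = 0.843) and rho = -0.294. No pair passed after adjustment.

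**Figure D4:**
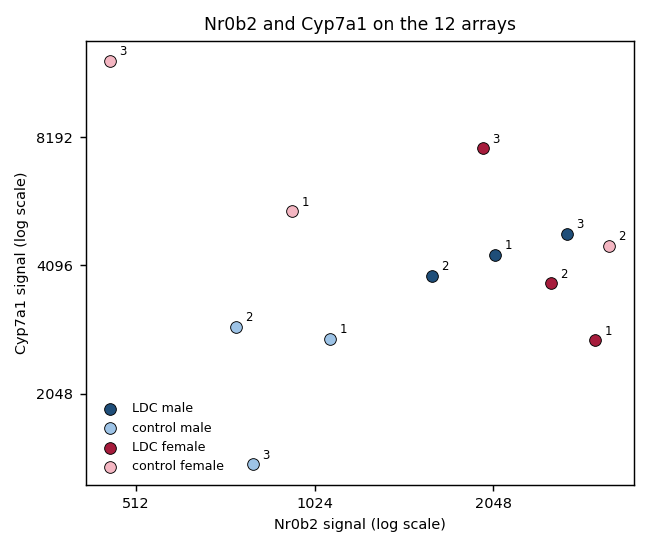
Signal of Cyp7a1 against that of Nr0b2 on each of the 12 arrays (both axes on a log scale), with the replicate number beside each point. Control female 3 had the lowest Nr0b2 (464) and the highest Cyp7a1 (12398), and LDC males lay above control males on both axes.

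The genes whose signal followed a member most closely over the 12 arrays were found by Pearson's r, as a description. For Cyp7b1 they were Elovl3 (0.979), Alas2 (0.975) and Zbtb20 (0.974), and with group means removed their r was 0.487 to 0.744. For Cyp7a1 they were Usp30 (0.903), Zc3h14 (0.891) and Hnrnpdl (0.872). Cyp8b1 had Lor (0.85), Zfand6 (0.85) and Acot8 (0.845), of which Acot8 encodes a peroxisomal thioesterase that acts on bile acid CoA esters. Nr0b2 had Hgd (0.919), Dlc1 (0.915) and Rnf5 (0.914).

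Other genes of the pathway were grouped by their known roles. Of 17 further synthesis enzymes tested, 0 rose and 1 fell in LDC males, beside 0.278% of all probe sets called. In LDC females 0 were called, beside 0.122%. The gene that fell was Hsd3b7, the 3-beta-hydroxysteroid dehydrogenase of both routes. It had 11578, 12063 and 10830 in LDC males, against 19837, 19218 and 15671 in control males, an effect of -0.66 (SE 0.12, adjusted p = 0.0448 in limma) without overlap. The female effect was -0.04. The call for Hsd3b7 was kept only without control female 1, control female 2 or control male 3 among the 12 arrays, with values of -0.77 to -0.60. Acox2 and Cyp2c70, which act on the side chain and on muricholic acid formation, had -0.40 each in males and did not pass the test.

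Of 13 transporters tested, 1 fell in LDC males, beside 0.278% of all probe sets called, and 0 were called in LDC females, beside 0.122%. Abcb11, the bile salt export pump and a target of FXR, had 6901, 7981 and 7133 in LDC males, against 11268, 10476 and 12756 in control males. In females it had 13561, 12702 and 12463 with LDC, against 10504, 13169 and 11590 in control livers. Male arrays did not overlap and female arrays did, with LDC effects of -0.65 for males (SE 0.10, adjusted p = 0.0179) and 0.14 for females (adjusted p = 0.734). The difference between these effects was -0.79 (adjusted p = 0.0459). The male call was lost without control male 3, LDC male 1 or LDC male 3 (range -0.71 to -0.57), and that of the difference was kept only without control female 2 among the 12 arrays, at values of -0.87 to -0.71. The organic anion transporter Slco1a4 had 0.95 in males and 0.57 in females, and the efflux pumps Abcc4 and Abcc3 had 0.92 and 0.31 in males, none of which passed the test.

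Among 16 other regulators tested, 0 were called for LDC in either sex, beside 0.278% of all probe sets in males and 0.122% in females. Onecut1, a hepatocyte transcription factor, had the largest male value at -1.74 (adjusted p = 0.143). In males Foxo1 had 0.46, Ppara 0.44, Prox1 0.66, Nr1i3 0.53 and Nr5a2 -0.30. In females Foxo1 had -0.28, Ppargc1a -0.46 and Klb -0.31, and Mafg, a repressor induced by FXR, had 0.43. Counting Onecut1, 6 of the 16 were at an unadjusted p under 0.05 in limma in males, beside 10.2% of all probe sets. In females 4 were, beside 9.01%. All of them stayed above the adjusted threshold.

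**Figure D5:**
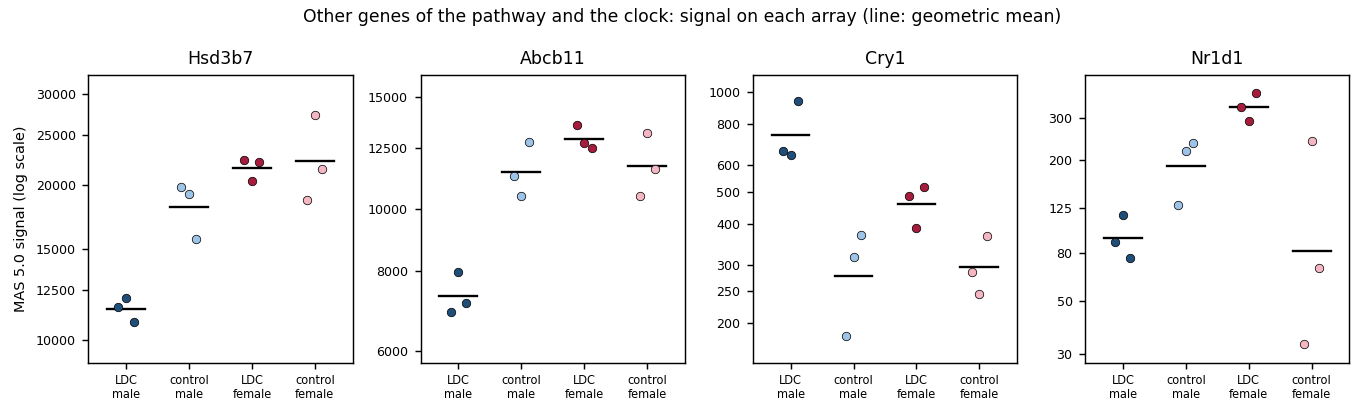
Signal (log scale) on each array for Hsd3b7, Abcb11 and the clock genes Cry1 and Nr1d1, LDC left of control within each sex, with the geometric mean as a line. Hsd3b7 and Abcb11 were lower on all LDC male arrays than on any other array, and Cry1 was highest in LDC males (646 to 940).

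Bile acid synthesis follows the daily clock, and Cyp7a1 and Nr0b2 are known to cycle, so clock genes were examined on the same arrays. Of 15 tested, 1 rose in LDC males, where 0.278% of all probe sets were called. It was Cry1, with 664, 646 and 940, against 183, 318 and 371 in control males (1.41, SE 0.26, adjusted p = 0.0448). The call was kept without control male 3 or any one control female and lost without any of the other 8 arrays (1.11 to 1.62). At an unadjusted p under 0.05 in limma, 5 of 15 differed in males, 4 higher and 1 lower, beside 10.2% of all probe sets. In LDC females 0 were called, and 6 had an unadjusted p under 0.05, all higher, beside 9.01%. The median effect over the clock genes was 0.42 in males and 0.38 in females. Nr1d1, which encodes REV-ERB-alpha, had 334, 293 and 384 in LDC females, against 33.0, 241 and 69.0 in control females, an effect of 2.03 (adjusted p = 0.214) that reached an adjusted p of 0.0103 without control female 2, the array on which Nr0b2 was high. In LDC males Nr1d1 had 89.3, 116 and 76.4, against 128, 218 and 235 in control males, without overlap, an effect of -1.02 (adjusted p = 0.559). The difference between the male and female effects was -3.05 (adjusted p = 0.171). Dbp and Per2 had 1.79 and 1.72 in females. In males Per3 had 1.74, Nfil3 0.87, Nr1d2 0.42 and Clock -0.47, and none of these passed the test. Whether the clock genes have a part in the values of Nr0b2 and Cyp7a1 was not tested.

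Markers of other cells were summed on each array. All 10 macrophage and Kupffer cell markers were measured and 0 were called, with a median effect of 0.71 in males and -0.74 in females. Their summed signal was 22156 to 32040 in LDC males, 15944 to 16033 in control males, 7724 to 36085 in LDC females and 18585 to 48066 in control females. Blood cell markers summed to 4264 to 5465 in LDC males, 3791 to 5036 in control males, 914 to 1422 in LDC females and 3319 to 6215 in control females. Of 4 tested, S100a8 was called higher in LDC males, and S100a8 and S100a9, both granulocyte genes, were called lower in LDC females. Alas2 of the same list went the other way, at -0.64 in males and 0.26 in females. Ppbp had 0.15 in males and -1.24 in females, and neither Alas2 nor Ppbp was called. The sums of lymphocyte and plasma cell markers were 1946 to 2893 in LDC males, 1527 to 1729 in control males, 746 to 1270 in LDC females and 2124 to 3992 in control females. Of 5 tested, Jchain, a plasma cell gene, was called lower in LDC females. Cd8a of the same list went the other way in females, at 0.70, and was not called. The part of these markers in the values of the 10 genes was not tested.

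Between the sexes, in LDC mice 2 of 17 further enzymes were called, both lower in males, beside 6.29% of all probe sets. In control mice 8 were called, 7 higher and 1 lower, beside 7.73%. Acnat2, a peroxisomal acyl-CoA amino acid N-acyltransferase, was lower in males in both, with 465, 346 and 440 in LDC males, against 1869, 2138 and 2396 in LDC females (-2.36, adjusted p = 0.000218), and -1.84 (adjusted p = 0.00162) in control mice. Hsd3b7 had -0.91 (adjusted p = 0.000376) in LDC mice and -0.29 in control mice. The enzymes higher in control males, at 0.33 to 0.57, were Abcd3, Acaa1b, Acox2, Hsd17b4, Scp2, Slc27a2 and Sult2a8, several of them of the peroxisomal side-chain shortening, and all 7 calls were lost under median centring of the arrays. Those of Abcd3 and Acaa1b were also lost without control female 2, and that of Hsd17b4 was kept in 2 of 12 fits without 1 array. That scaling moved the split over all probe sets to 663 higher and 1306 lower in control males, where the fit without it gave 969 and 1119, and to 608 and 1181 in LDC males, where the fit without it gave 812 and 889. The calls of Cyp7b1, Fgfr4 and Cyp7a1 held under it.

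Of the 16 regulators, 4 were called between LDC males and females, beside 6.29% of all probe sets, and 5 between control males and females, beside 7.73%. Ppara was higher in males in both (0.84 in LDC mice, 0.49 in control mice), as was Foxo1 (1.15 in LDC mice, 0.41 in control mice). Ppargc1a was higher (1.16) and Nr2f2 lower (-0.61) in LDC males than in LDC females. In control males Hnf4a and Rxra were higher and Nr1i3 lower than in control females. These control calls did not hold in every fit. In the 12 fits without 1 array Foxo1 kept its call in 1, Rxra in 3, Hnf4a in 4, Nr1i3 in 5 and Ppara in 8, and those of Foxo1 and Nr1i3 were lost without control female 2. With median centring the control calls of Ppara, Foxo1, Hnf4a and Rxra were lost, as was that of Abcb4 below. Of the 13 transporters, Slco1a1 and Abcb4 were higher and Abcc4 and Slco1a4 lower in control males than in control females. Slco1a1, an organic anion transporter, had 8631, 9502 and 8737 in control males, against 7.81, 764 and 1756 in control females, and the call was lost without any one control male. In LDC mice Slco1a1 was not called, though LDC males had 5274, 8505 and 4791, against 754, 209 and 1050 in LDC females, without overlap. Its within-group SD was 2.20 on the log2 scale. In LDC mice 1 transporter was called, Abcb11, at -0.82 (adjusted p = 0.000186), with -0.03 in control mice. Of the clock genes, Arntl was lower and Nr1d2 higher in males of both LDC and control mice, Per1 was higher in LDC males and Dbp in control males. In the 12 fits without 1 array, Arntl kept its call in 6 in LDC mice and 9 in control mice. Nr1d2 kept its call in 12 in LDC mice and 10 in control mice, and Per1 and Dbp kept theirs in 9 each. Without an intensity trend all of these clock gene calls were lost.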

How the data were processed

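The authors hybridised liver RNA to Affymetrix Mouse Genome 430 2.0 arrays and deposited 1 signal intensity per probe set and array, on a linear scale without detection calls, made with MAS5 (per the labels' processing notes; the methods name GeneSpring). Every array's mean, trimmed by 2% at each end, was checked and is 500.0, and array medians ran from 95.1 to 110.3. Control probe sets (64 of 45101) were left out. Symbols came from the platform table, updated through the gene ID to a RefSeq table of GRCm38.p6 for 34754 probe sets. This gave 1 gene for 34958 probe sets, several for 932 and none for 9211. No value column was left without a sample.

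Intensities were log2 transformed. The test took the 27022 probe sets whose mean was not under the 40th percentile, a signal of 48.6 (5.60 as log2). Group means were fitted over all 12 arrays with limma 3.58.1 (R 4.3.3, 8 residual and 6.35 prior degrees of freedom, intensity trend), and p-values were adjusted over all probe sets by Benjamini and Hochberg. A gene was called at an adjusted p under 0.05. Effects are log2 differences, the difference of effects is male minus female, and the number of arrays limits the precision. Each gene's main probe set is the one of highest mean signal. The procedure was tested on simulated data.

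All 10 genes are named with every probe set. From the lists of other enzymes, regulators, transporters and clock genes, each gene called in a contrast is named. The rule also allowed up to 3 more per list and sex with the smallest p for LDC, and not all of these are described. For Cyp7a1, Cyp8b1, Cyp7b1 and Nr0b2 the 3 genes with the highest r are named. The members and lists were chosen with earlier results of these data known. Correlations used exact permutation within groups (1296 arrangements) in Python 3.11.15 with scipy 1.17.1, and figures matplotlib 3.10.9. Alternatives were median centring, quantile normalization, log2(value + 32), no filter, a filter at the 60th percentile, each comparison's own 6 arrays, no intensity trend, the methods' t-test (which the study names for body composition), a replicate block, a second probe set and leaving out each array. Leaving out each array for the correlations was added after seeing the values.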

Additional observations from a re-analysis of the deposited data

Results flagged for a closer look

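The LDC effects of males and females differed by test for 34 probe sets in the positive and 14 in the negative direction, of 27022. Among the genes listed by role or as cell markers they differed for 4, all outside the 10. For Abcb11, the bile salt export pump, the male effect minus the female effect was -0.79 on the log2 scale (adjusted p = 0.0459). Among the 12 fits without 1 array this call was kept only without control female 2, and it was lost with quantile normalization, with median centring, without an intensity trend and with a replicate block. The other genes mark granulocytes and plasma cells. The difference was 4.60 for S100a8 (adjusted p = 1.47e-05 in limma), with 1.43 in males and -3.17 in females. It was 4.05 for S100a9 (adjusted p = 0.00227), with 1.29 in males and -2.75 in females, and 3.08 for Jchain (adjusted p = 0.00525), with 0.72 in males and -2.36 in females. S100a8 had 1695, 1659 and 1545 in LDC males, against 558, 580 and 691 in control males, and 260, 357 and 218 in LDC females, against 3284, 1688 and 2677 in control females. Groups of 3 arrays were too small for an outlier test.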

How the results depend on the processing

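Counts of the 10 genes called moved as follows. For LDC in males the count was 1 (Nr0b2) with own 6 arrays, and in females 0 to 1 when 1 array was left out, 1 only without control female 2. Between control males and females it was 0 with the methods' t-test, 2 without an intensity trend (Cyp7a1 lost), 2 with second probe sets (Fgfr4 lost), and 2 to 3 when 1 array was left out (2 without control female 3 or control male 3). Of all 27022 probe sets, that t-test called only 2 higher and 5 lower in control males, and 172 higher and 153 lower in LDC males. In LDC mice the count was 1 without an intensity trend, 0 with the methods' t-test and 1 with second probe sets. It was 3 (Akr1d1 added) with quantile normalization and with own 6 arrays, and 1 to 3 when 1 array was left out (3 without control male 3, 1 without any one LDC female, LDC male 1 or LDC male 2).

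Several effects changed sign, most of them near 0. Median centring gave, in LDC mice between the sexes, -0.06 for Cyp7a1, -0.04 for Cyp27a1 (also -0.04 with quantile normalization), -0.03 for Nr1h4 and -0.03 for Slc27a5, and -0.02 for Baat in control mice. Second probe sets gave 0.06 for Baat in males, and for Fgfr4 -0.27 in females and 0.27 between LDC males and females, where the brightest probe set was called at -0.65. Leaving out 1 array gave ranges across 0 for the LDC effect of Cyp8b1 in males (-0.39 to 0.46), and of Cyp27a1 (-0.14 to 0.03) and Nr1h4 (-0.07 to 0.09) in females. It did so for the difference of effects of Cyp8b1 (-0.03 to 0.95), Cyp27a1 (-0.13 to 0.04), Nr0b2 (-0.65 to 0.74) and Slc27a5 (-0.11 to 0.02), and between control males and females for Cyp27a1 (0.00 to 0.17) and Nr0b2 (-0.99 to 0.40). Between LDC males and females the ranges were -0.30 to 0.45 for Cyp7a1, -0.02 to 0.10 for Cyp27a1, -0.01 to 0.15 for Nr1h4 and -0.04 to 0.09 for Slc27a5. Nr0b2 with Cyp7a1 turned to 0.375 in males only. Nr1h4 with Nr0b2 turned to 0.115 under median centring, 0.076 without the 2 farthest arrays, and ran from -0.423 to 0.10 when 1 array was left out. The cause of these changes was not tested.

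The values gave no sign that replicate numbers pair the arrays. Deviations of same-numbered arrays in different groups correlated at -0.028 to 0.059, and those of other arrays at -0.078 to 0.082. Pairing by litter or cage could not be tested, since neither is stated. With a replicate block, counts over the 10 genes were 0 for LDC in males and females and 0 for their difference, 3 between control males and females and 2 between LDC males and females. Over all probe sets the block gave 30 higher and 18 lower calls in males, where the fit without it gave 43 and 32. The male LDC call of Hsd3b7 and the Abcb11 difference lost their calls under the block, as did Abcd3, Acaa1b, Hsd17b4, Foxo1, Hnf4a, Nr1i3 and Ppara between control males and females. Hsd3b7 also lost its call with median centring, and without an intensity trend the LDC calls of Hsd3b7, Abcb11 and Cry1 were lost. With 3 arrays per group, the 95% interval of the male LDC effect ran from 0.25 to 2.27 for Nr0b2 and from -0.84 to 1.07 for Cyp8b1.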
